A study of Lycium barbarum and Lycium ruthenicum with 30 samples.

Results

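Phenylalanine ammonia-lyase (PAL) is followed here through 1 unigene, TRINITY_DN66948_c1_g4, a de novo assembled transcript cluster that the study annotated as PAL in its phenylpropanoid set. It was chosen by this annotation and is 1 of 326276 unigenes in the expression table and 1 of 4 annotated as PAL. RNA was sequenced from fruits of wild-type *Lycium ruthenicum* (LR), which ripens black, and *Lycium barbarum* (LB), which ripens red, at young (S1), green (S2), colouring (S3), immature (S4) and mature (S5) stages. Each species and stage had 3 libraries from fruits of 3 trees, 30 libraries in all, named by species, stage and number (LR5-3 is LR, S5, library 3). Each species was sampled from fewer shrubs than it has libraries, so some shrubs gave fruit at more than 1 stage, and no label tells which libraries share a shrub. The LR shrubs were wild plants on salinized soil and the LB shrubs were cultivated with watering elsewhere. Differences of species, site and water supply therefore cannot be told apart wherever LR is set against LB.

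The table's columns carry the letters B and R. The study's text reads B as LR and R as LB, while the sample titles give the same columns the opposite species names. Of 210 values for 7 unigenes that the study printed under species names, 210 equalled the deposited column (to within 0.005 FPKM) with B read as LR, and 6 did so under the other reading. B was therefore read as LR throughout, and if the titles were right, every LR and LB below would change places.

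PAL removes ammonia from phenylalanine to give cinnamic acid and so opens the phenylpropanoid pathway. Cinnamate 4-hydroxylase (C4H) and 4-coumarate-CoA ligase (4CL) carry the product to coumaroyl-CoA, from which one branch leads to lignin and another, through chalcone synthase (CHS), to flavonoids. Leucoanthocyanidin dioxygenase (LDOX) acts late in the flavonoid branch and makes the anthocyanidins, the coloured cores of anthocyanin pigments. Plants usually carry several PAL genes.

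Values are FPKM, the fragments mapped to a unigene divided by its length and by the library's mapped total. FPKM divides by the total of a library. In LR libraries 28 very abundant unigenes took 27.2 to 67% of the summed FPKM. They were picked for a mean of 10000 FPKM or more in LR and an LB mean under 1% of it. Their share in LB, at most 0.0277%, is therefore low by this choice, and LB was not searched in the same way. A share of summed FPKM is not a share of mapped fragments. How far LR values of other unigenes are held down was not tested. Between 46024 and 62882 unigenes reached 1 FPKM in LR libraries, against 52460 to 84959 in LB libraries. The study's text calls the consistency among its replicates very good and names no outlying library. Both LB4-3 and LB5-2 nevertheless stand apart from the other libraries of their stages in the published clustering. Without them no call of PAL changed, and its LR minus LB difference was 3.499 at S4 and 4.07 at S5 on the log2 scale below. Differences are on the log2(FPKM + 0.5) scale, which understates changes of low values, and were tested with limma over 111217 unigenes, with Benjamini-Hochberg adjustment within each comparison. Calls needed an adjusted p below 0.01 together with a difference of 2-fold or more. In whole fruits, fewer cells that express a gene and less RNA per cell cannot be told apart.

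PAL DN66948_c1_g4 was higher in LR than in LB at every stage, and the gap was smallest in young fruits. At S1 it stood at 58.4, 39.5 and 62.1 FPKM in LR fruits, against 13.4, 19.2 and 13.0 FPKM in LB fruits. At S2 it stood at 24.5, 31.9 and 39.8 FPKM in LR fruits, against 7.40, 4.16 and 3.58 FPKM in LB fruits. The LR and LB libraries did not overlap at either stage. At S3, when colour appears, the values were 14.0, 16.9 and 39.7 FPKM in LR fruits, against 1.03, 3.10 and 1.67 FPKM in LB fruits. At S4 they were 36.2, 34.0 and 50.1 FPKM in LR fruits, against 4.92, 1.81 and 1.66 FPKM in LB fruits. The groups again did not overlap, and LR3-3 stood apart in FPKM above the other S3 fruits of its species. In LR3-3 the 28 abundant unigenes took 36.2% of the summed FPKM, against 61.6% in LR3-1 and 60.4% in LR3-2. The size of that gap therefore depends on the scaling. In mature fruits PAL reached 54.9, 83.1 and 190.8 FPKM in LR, against 4.88, 5.86 and 5.59 FPKM in LB. The LR fruits at S5 differed widely among themselves, while the LB fruits lay close together.

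**Figure D1:**
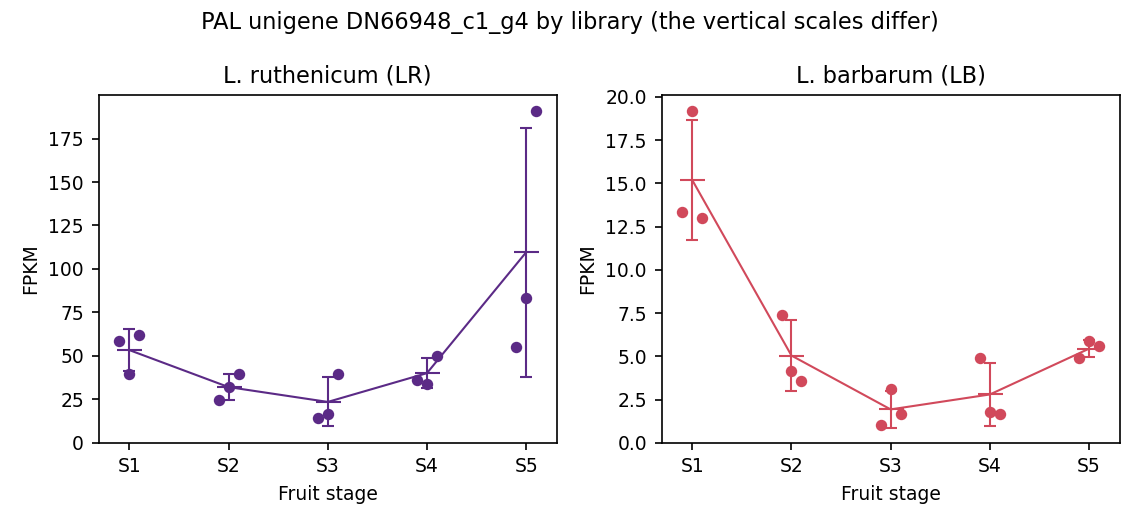
FPKM of PAL DN66948_c1_g4 (vertical axis, a different scale in each panel) at 5 fruit stages in LR and LB; points are libraries, and bars show the mean ± SD of 3 libraries. In both species the mean FPKM was lowest at S3, an order of S3 and S2 in LR that turned when libraries were rescaled without the 28 abundant unigenes; the LR mean was highest at S5 (109.6 FPKM) and the LB mean at S1 (15.2 FPKM).

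The log2 difference, LR minus LB, was 1.77 at S1 (SE 0.44, limma adjusted p = 0.00207) and 2.59 at S2 (SE 0.44, limma adjusted p = 3.90e-05). The call at S1 was lost without LR1-3 (1.65, limma adjusted p = 0.0113) or LB1-3 (1.68, limma adjusted p = 0.0106). The difference was 3.24 at S3 (limma adjusted p = 1.72e-06), 3.74 at S4 (limma adjusted p = 1.99e-07) and 4.02 at S5 (limma adjusted p = 5.55e-08), each with an SE of 0.44. PAL was thus called higher in LR at all 5 stages, where 10.3%, 11.2%, 10.5%, 8.72% and 12.2% of all unigenes tested were called higher at S1 to S5. In numbers, 11509, 12408, 11656, 9697 and 13517 unigenes were called higher in LR and 22874, 21768, 23949, 27250 and 23308 lower; with median-of-ratios scaling 13751, 15073, 18180, 16783 and 16198 were called higher and 15609, 15458, 16320, 16747 and 18203 lower. As a ratio of mean FPKM, LR exceeded LB 3.51-fold at S1, 6.35-fold at S2, 12.2-fold at S3, 14.3-fold at S4 and 20.1-fold at S5. The median difference of all unigenes was below 0 at each stage, between -0.49 and -0.25, and scaling the libraries to each other moved it up by 0.25 to 0.49; the PAL difference was then larger at every stage, 2.34 at S1 and 4.46 at S5 with median-of-ratios scaling.

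Whether the gap widened during ripening was tested as the LR minus LB difference of the stage changes. From S1 to S5 the change of PAL was 2.24 log2 units more positive in LR than in LB (SE 0.62, 95% interval 0.96 to 3.53, limma adjusted p = 0.0205), which missed the threshold. The change of late fruits, the mean of S3, S4 and S5, against early fruits, the mean of S1 and S2, was 1.48 units more positive in LR (SE 0.40, 95% interval 0.66 to 2.31, limma adjusted p = 0.0120) and was not called either. The same difference was 1.47 for S3 against S1 (limma adjusted p = 0.132) and 0.78 for S5 against S3 (limma adjusted p = 0.541). Among all unigenes 5.43%, 8.47%, 6.5% and 2.74% were called in these 4 comparisons. With median-of-ratios scaling the late minus early difference was 1.71 and was called (limma adjusted p = 0.00422).

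Within LR, PAL rose at S5 relative to S3, the stage with the lowest mean FPKM. S3 against S2 was -0.56 (limma adjusted p = 0.555) and turned to 0.13 when libraries were rescaled without the 28 abundant unigenes, so that S3 was then not the lowest stage. Its means were 53.3 ± 12.1, 32.1 ± 7.63, 23.5 ± 14.1, 40.1 ± 8.71 and 109.6 ± 71.7 FPKM at S1, S2, S3, S4 and S5 (SD, n = 3 each). Stage as a whole had an effect (limma F test, adjusted p = 0.00684), a call that was lost in 6 of 15 fits that each left out 1 LR library, with an adjusted p of up to 0.0360 without LR5-3. Of 7 pairs of stages compared in LR only S5 against S3 was called, at 2.15 log2 units (SE 0.44, limma adjusted p = 0.00330), where 3% of all unigenes were called (2634 higher and 701 lower, against 1427 higher and 1871 lower with median-of-ratios scaling). In the other LR pairs the share called was 0.466% for S2 against S1, 2.01% for S3 against S2, 0.0548% for S4 against S3, 2.55% for S5 against S4, 6.69% for S3 against S1 and 8.37% for S5 against S1. The 3 mature fruits, at 54.9 to 190.8 FPKM, lay above the 3 colouring fruits, at 14.0 to 39.7 FPKM. Ordered by mean, the stages ran S5, S1, S4, S2 and S3, and the libraries of all neighbours in that order overlapped. The step to S5 against S4 was 1.26 (limma adjusted p = 0.0690), S3 against S1 was -1.29 (limma adjusted p = 0.0557) and S5 against S1 was 0.86 (limma adjusted p = 0.256).

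The call at S5 against S3 in LR depended on single fruits and on the scaling. Without LR5-3 the difference was 1.65 (limma adjusted p = 0.0236), without LR3-1 1.86 (limma adjusted p = 0.0321), without LR3-2 1.99 (limma adjusted p = 0.0250) and without LR5-2 2.25 (limma adjusted p = 0.0107). With median-of-ratios scaling it was 1.60 (limma adjusted p = 0.0288). The 28 abundant unigenes took 30.4%, 39.0% and 31.6% of the summed FPKM in the S5 libraries, against 61.6% and 60.4% in LR3-1 and LR3-2 and 36.2% in LR3-3. With libraries rescaled without these unigenes, S5 against S3 was 1.74 (limma adjusted p = 0.0101, not called).

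Within LB, PAL was highest in young fruits and fell to its lowest level at S3. Its means were 15.2 ± 3.46, 5.05 ± 2.06, 1.93 ± 1.06, 2.80 ± 1.84 and 5.44 ± 0.51 FPKM at S1, S2, S3, S4 and S5 (SD, n = 3 each), and stage had an effect (limma F test, adjusted p = 0.000210). The S3 fruits, at 1.03 to 3.10 FPKM, all lay below the S1 fruits, at 13.0 to 19.2 FPKM. The difference of -2.76 (SE 0.44, limma adjusted p = 3.53e-05) was the only 1 of 7 LB pairs called, in a comparison where 17.5% of all unigenes were called (5653 higher and 13834 lower, against 7600 higher and 10235 lower with median-of-ratios scaling). In the other LB pairs the share called was 6.31% for S2 against S1, 5.28% for S3 against S2, 0.27% for S4 against S3, 1.22% for S5 against S4, 4.9% for S5 against S3 and 14.5% for S5 against S1. The difference at S2 against S1 was -1.54 (limma adjusted p = 0.0222), S5 against S3 was 1.37 (limma adjusted p = 0.0443) and S5 against S1 was -1.38 (limma adjusted p = 0.0242), and none of these passed. The order of LB stage means was S1, S5, S2, S4 and S3, and the libraries of S5 and S2, of S2 and S4, and of S4 and S3 overlapped, whereas those of S1 and S5 did not.

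The spread among the 3 fruits of a stage was of the same order as many of the stage changes. In unscaled FPKM the highest LR fruit exceeded the lowest 1.57-fold at S1, 1.62-fold at S2, 2.83-fold at S3, 1.47-fold at S4 and 3.48-fold at S5. The LR spreads at S3 and S4 depend on the scaling. Median-of-ratios factors were 0.486, 0.565 and 0.919 for LR3-1, LR3-2 and LR3-3, and 0.740, 0.557 and 0.408 for LR4-1, LR4-2 and LR4-3. Division by them narrows the spread at S3 and widens it at S4. In LB the unscaled ratios of highest to lowest fruit were 1.47 at S1, 2.07 at S2, 3.01 at S3, 2.96 at S4 and 1.201 at S5. At S5 the fruits were therefore least alike in LR and most alike in LB. Over all stages the LR libraries ranged from 14.0 (LR3-1) through a median of 39.7 to 190.8 FPKM (LR5-3), and the LB libraries from 1.03 (LB3-1) through a median of 4.88 to 19.2 FPKM (LB1-2).

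The other 3 unigenes annotated as PAL showed where this one differs. DN100508_c2_g5 averaged 88.2 ± 20.9, 48.6 ± 14.3, 24.4 ± 17.4, 33.2 ± 8.33 and 89.5 ± 62.3 FPKM at S1 to S5 in LR, against 77.3 ± 9.67, 16.7 ± 7.18, 3.04 ± 1.11, 7.13 ± 4.87 and 20.01 ± 4.97 FPKM in LB (SD, n = 3 each). DN65745_c2_g1, the lowest of the 4 in LR at S1, averaged 32.6 ± 5.18, 17.8 ± 7.84, 10.4 ± 7.61, 10.5 ± 3.11 and 40.9 ± 26.2 FPKM in LR, against 19.6 ± 3.17, 4.09 ± 1.91, 1.07 ± 0.57, 2.25 ± 2.36 and 4.06 ± 1.81 FPKM in LB. Both had their lowest LB mean at S3 and a higher mean again at S5 in both species, as PAL DN66948_c1_g4 did. DN91492_c2_g1 had another course, with 160.5 ± 20.5, 114.6 ± 40.8, 36.2 ± 13.1, 20.9 ± 9.40 and 17.5 ± 11.8 FPKM in LR, against 116.9 ± 33.6, 27.1 ± 14.0, 6.18 ± 1.26, 8.08 ± 9.50 and 5.06 ± 2.29 FPKM in LB. It was the highest of the 4 at S1 and the lowest of the 4 in LR at S5, and it fell by 3.39 log2 units in LR at S5 against S1 (limma adjusted p = 0.00029).

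**Figure D2:**
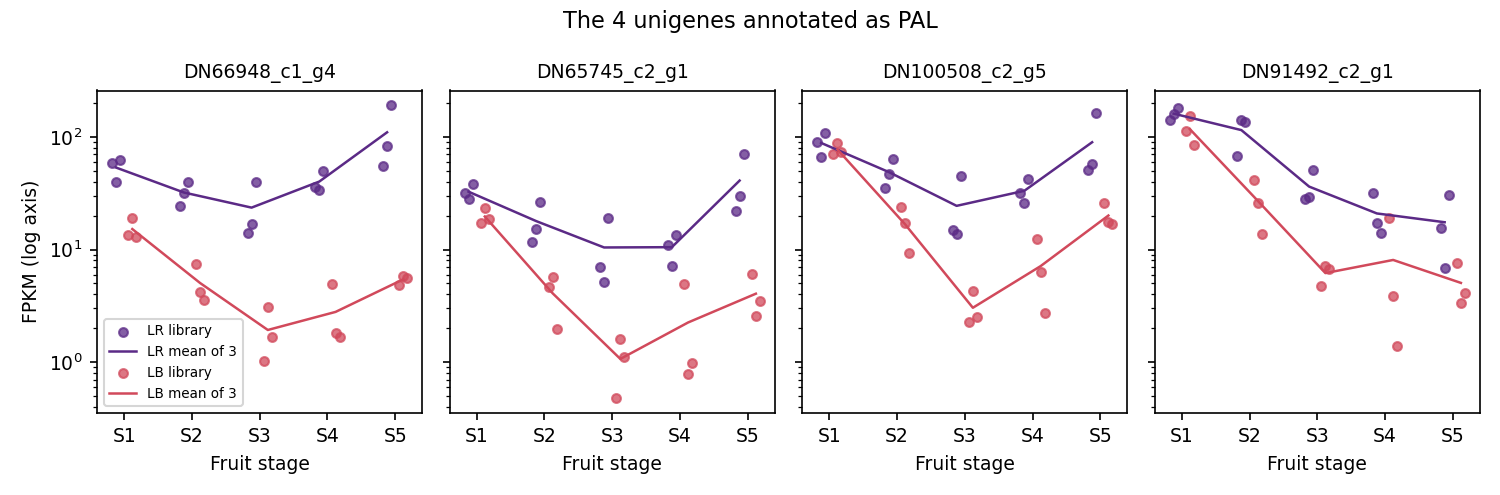
FPKM of the 4 PAL unigenes (vertical log axis) at 5 stages, with LR libraries and means drawn left of LB; lines join means of 3 libraries. DN66948_c1_g4 and DN65745_c2_g1 have no overlap between species at S1, and DN91492_c2_g1 ends at its lowest mean in both species at S5 (17.5 FPKM in LR and 5.06 FPKM in LB).

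At S1 PAL DN66948_c1_g4 was the only 1 of the 4 PAL unigenes called between species: the log2 differences, LR minus LB, were 0.72 for DN65745_c2_g1, 0.17 for DN100508_c2_g5 and 0.49 for DN91492_c2_g1 (limma adjusted p = 0.30, 0.84 and 0.55). The libraries of DN65745_c2_g1 did not overlap at S1 either, at 27.99 to 38.2 FPKM in LR, against 17.0 to 23.2 FPKM in LB. At S2, S3, S4 and S5, 3, 4, 3 and 3 of the 4 were called higher in LR and none lower. The ratio of PAL DN66948_c1_g4 to each other PAL within a library, which no scaling between libraries can change apart from the offset, was examined after the values had been seen. Averaged over stages, the log2 ratio was 0.92 units higher in LR than in LB against DN65745_c2_g1, 1.34 units higher against DN100508_c2_g5 and 1.38 units higher against DN91492_c2_g1. In permutation tests of libraries within stages the adjusted p was 6.00e-05, 4.50e-05 and 4.50e-05 over 9 ratio tests, and each difference kept its sign and call without any single library. A ratio between unigenes of different sequence in 2 species also carries how well each species' reads fit the shared assembly, and that part was not tested.

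**Figure D3:**
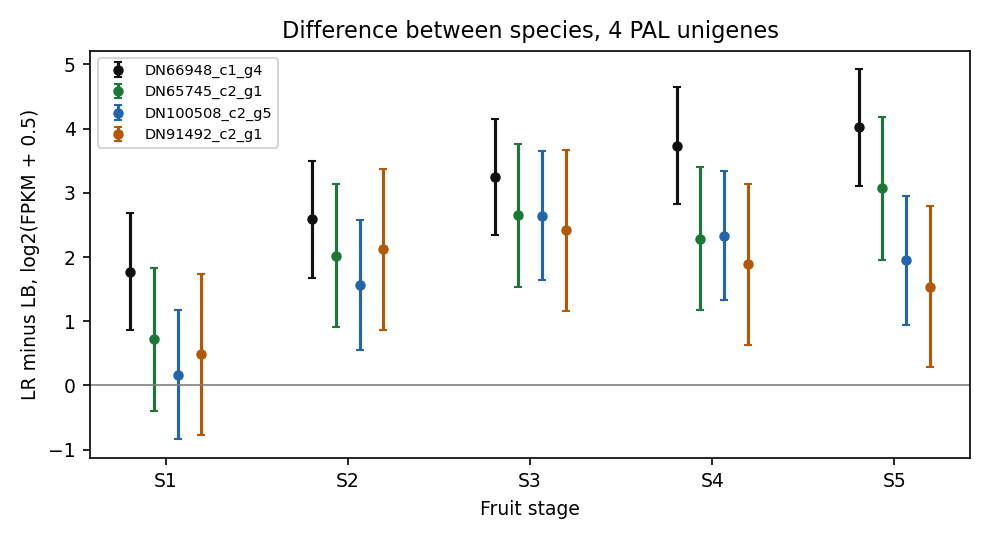
LR minus LB difference of log2(FPKM + 0.5) (vertical axis) at each stage for the 4 PAL unigenes; points are limma estimates and bars their 95% intervals. DN66948_c1_g4 is the highest point at every stage, at 1.77 at S1 and 4.02 at S5.

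The ratio of PAL DN66948_c1_g4 to the other PAL unigenes moved with stage as well. In LR the log2 ratio of PAL DN66948_c1_g4 to DN91492_c2_g1 averaged 0.98 in the 9 late libraries, against -1.69 in the 6 early ones (difference 2.67, exact permutation test, adjusted p = 0.00283). In LB the same ratio averaged -0.74 in late libraries, against -2.56 in early ones (difference 1.82, exact permutation test, adjusted p = 0.00283). The late minus early differences against DN100508_c2_g5 were 0.85 in LR and 0.80 in LB, and against DN65745_c2_g1 0.72 in LR and 0.53 in LB (exact permutation tests, adjusted p = 0.00045, 0.0236, 0.00283 and 0.0474). The LR differences and the LB difference against DN91492_c2_g1 kept their calls without any single library, whereas the LB difference of 0.53 lost its call in 11 of 15 such cases and that of 0.80 in 2 of 15. Late libraries were not alike: the LR ratio to DN91492_c2_g1 was -0.98 to -0.36 at S3 and 1.80 to 3.51 at S5. These permutations take the 15 libraries of a species as independent although they form 5 stages, so their p-values may be too small.

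The 4 PAL unigenes summed to 334.6 ± 49.7, 213.2 ± 66.3, 94.5 ± 52.0, 104.7 ± 18.4 and 257.4 ± 170.4 FPKM at S1 to S5 in LR, against 229.0 ± 48.2, 53.0 ± 24.4, 12.2 ± 3.80, 20.3 ± 18.4 and 34.6 ± 8.49 FPKM in LB (SD, n = 3 each). The LR libraries lay above the LB libraries at every stage, and the exact permutation test gave p = 0.1 at each, the smallest value that 3 against 3 libraries allow. PAL DN66948_c1_g4 made up 13.5 to 18.2% of the sum in LR at S1 and 38.5 to 47.0% at S5, against 6.24 to 6.86% in LB at S1 and 11.001 to 20.03% at S5. Whether some of the 4 unigenes are pieces of the same gene was not tested. FPKM of pieces of the same transcript do not add up, so these percentages need not be shares of PAL expression.

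The next enzymes of the pathway were read beside PAL. C4H DN77732_c4_g1 averaged 65.8 ± 15.1, 39.4 ± 10.03, 26.9 ± 18.8, 47.7 ± 8.20 and 89.2 ± 48.1 FPKM at S1 to S5 in LR, against 110.2 ± 36.0, 17.6 ± 7.75, 8.11 ± 3.29, 9.78 ± 5.02 and 3.02 ± 1.12 FPKM in LB. Its LR minus LB difference was -0.72 at S1 (limma adjusted p = 0.21, not called) and 4.60 at S5 (limma adjusted p = 9.9e-09). The other C4H, DN92590_c2_g2, was low, with LR means of 1.697 to 8.46 FPKM and LB means of at most 9.36 FPKM, and was listed at 0 in the 3 LB libraries of S3. Of 8 unigenes of 4CL, 4 were called higher and 1 lower in LR at S5, where 12.2% of all unigenes were called higher and 21% lower. Over the 113 phenylpropanoid unigenes, which the study selected on these same libraries and of which 111 passed the filter on low values, 3 were called higher and 41 lower in LR at S1, and 16 higher and 30 lower at S5, where 10.3% of all unigenes were called higher and 20.6% lower at S1. The balance at S5 turned with the scaling: 25 were called higher and 23 lower with median-of-ratios scaling, and 29 higher and 23 lower when rescaled without the 28 abundant unigenes, while S1 gave 3 higher and 28 lower under both. The median difference at S5 was 0.00, against -0.26 for all unigenes tested.

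**Figure D4:**
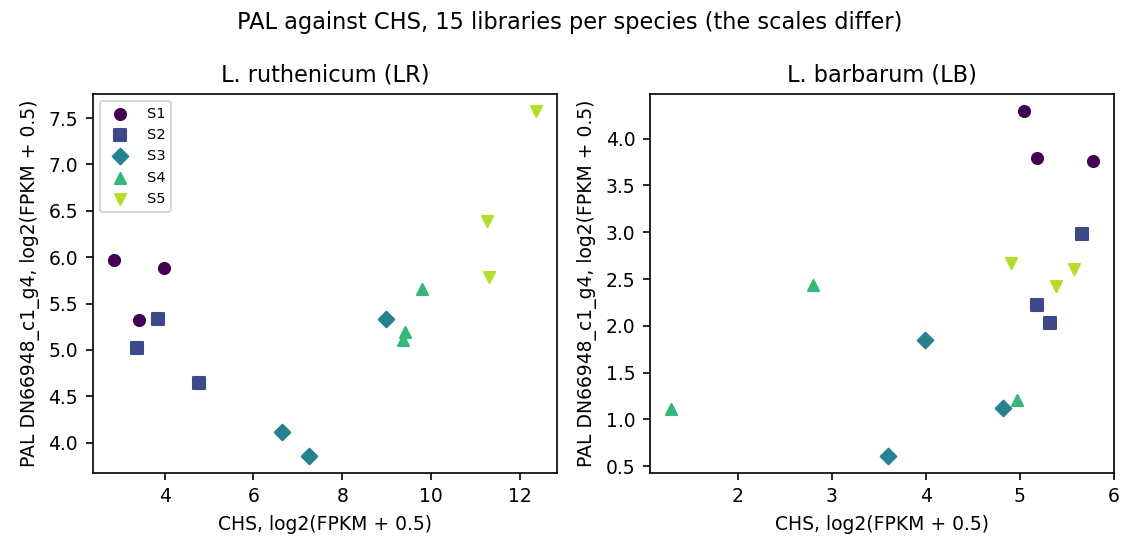
PAL DN66948_c1_g4 against CHS, both as log2(FPKM + 0.5), in the 15 libraries of LR and of LB; marker and colour give the stage, and the scales differ between panels. In LR the S3, S4 and S5 libraries lie along a rising line (r = 0.95, over stages chosen after this plot was seen), with the S1 and S2 libraries at low CHS and intermediate PAL.

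CHS DN73389_c1_g2, the first enzyme of the flavonoid branch, rose in LR at S5 against S1, where PAL was not called. It averaged 10.8 ± 4.38, 16.9 ± 8.92, 251.8 ± 220.9, 741.9 ± 125.8 and 3414 ± 1606 FPKM at S1 to S5 in LR, against 40.9 ± 11.9, 41.9 ± 7.50, 18.3 ± 8.50, 13.1 ± 15.6 and 39.3 ± 8.99 FPKM in LB. The LR difference at S5 against S1 was 8.21 log2 units for CHS (limma adjusted p = 3.5e-09) and 0.86 for PAL; the difference between these 2 was not tested. At S1 the LR minus LB difference of CHS was -1.91 (limma adjusted p = 0.019, not called), where that of PAL was 1.77.

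Over the 15 LR libraries PAL and CHS had a Pearson r of 0.40 (permutation test, p = 0.141, adjusted p = 0.198 over 14 relations) and a Spearman rho of 0.31 (permutation p = 0.258, adjusted p = 0.329). Over the 15 LB libraries r was 0.51 (permutation p = 0.0519, adjusted p = 0.0808) and rho 0.58 (permutation p = 0.0254, adjusted p = 0.0444). Without the 2 libraries farthest from the median of CHS, r was 0.32 in LR and 0.61 in LB (permutation adjusted p = 0.371 and 0.0470). Taken as deviations from the stage means, r was 0.58 in LR and 0.02 in LB (exact permutation within stages, adjusted p = 0.184 and 0.981). With median-of-ratios scaling the LR value was 0.57 (permutation adjusted p = 0.0391), and without LR5-3 it was 0.17.

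Splitting the stages was a choice made after the plot had been seen, so the values in the parts are a description, with no test. Over the 9 LR libraries of S3 to S5, r was 0.95 and rho 0.92, and r was 0.94 without LR3-2 and LR5-3. Over the 6 LR libraries of S1 and S2, r was -0.61 and rho -0.43, and r was 0.83 without LR1-3 and LR2-1, so no direction held there. In LB r was 0.39 and rho 0.52 over S3 to S5 and r was -0.05 and rho -0.49 over S1 and S2. Without the 2 libraries farthest from the median of CHS these LB values of r were 0.67 and -0.83. The relation in late LR fruits follows the stage order, and stage and CHS cannot be told apart in it.

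Correlations with the other pathway entry unigenes were computed in the same way. The Pearson r of PAL in LR was 0.88 with DN100508_c2_g5, 0.88 with DN65745_c2_g1 and 0.89 with C4H DN77732_c4_g1 (permutation adjusted p = 0.00014, 0.00011 and 0.00011), but -0.10 with DN91492_c2_g1 (permutation adjusted p = 0.718). In LB it was 0.97, 0.95 and 0.70 with the first 3, and 0.83 with DN91492_c2_g1 (permutation adjusted p = 7.0e-05, 7.0e-05, 0.0063 and 0.00042). Spearman's rho was 0.83, 0.88, 0.79 and -0.02 in LR (permutation adjusted p = 0.00084, 0.00021, 0.0016 and 0.954) and 0.94, 0.88, 0.53 and 0.69 in LB (permutation adjusted p = 0.00021, 0.00042, 0.0738 and 0.0115), in the same order of unigenes. Without the 2 libraries farthest from the median of the other unigene, r in LR was 0.78, 0.77, 0.81 and -0.19, and in LB 0.96, 0.92, 0.44 and 0.69. Without LB1-1 and LB1-2, the LB relation with C4H DN77732_c4_g1 did not pass (permutation adjusted p = 0.178). On deviations from stage means, r was 0.97 with DN100508_c2_g5 and 0.93 with DN65745_c2_g1 in LR (exact permutation within stages, adjusted p = 0.0054 for both). In LR it was 0.76 with C4H DN77732_c4_g1 and 0.55 with DN91492_c2_g1, and neither passed 0.05 (exact permutation within stages, adjusted p = 0.103 and 0.200). In LB it was 0.80, 0.75, 0.75 and 0.77 in the same order of unigenes (exact permutation within stages, adjusted p = 0.0450, 0.0567, 0.0450 and 0.0270). The same fruit was highest for PAL DN66948_c1_g4 and for each of DN100508_c2_g5 and DN65745_c2_g1 at 5 of 5 LR stages, and for CHS at 3 of 5. That fruit was library 3 at all 5 stages, and over all unigenes the LR libraries numbered 3 deviated together (r over 0.1 in 9 of 10 pairs of stages). The permutations within stages take libraries of different stages as independent, so their p-values may be too small. The same holds for the permutations over all libraries of a species, which also disregard the stages. The other C4H, DN92590_c2_g2, which was low in both species, went differently. Its r with PAL was -0.31 in LR and 0.86 in LB (permutation adjusted p = 0.307 and 0.00011). On deviations from stage means these were -0.35 and 0.54 (exact permutation within stages, adjusted p = 0.184 for both). With LDOX, r was 0.33 in LR and -0.13 in LB (permutation adjusted p = 0.292 and 0.694).

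Ranked over all 99909 unigenes that varied in LB, DN100508_c2_g5 and DN65745_c2_g1 were the second and the third most like PAL, after DN90358_c1_g1 (r = 0.97), a unigene outside the pathway lists. In LR, over 97748 unigenes, they ranked 68 and 73, and C4H DN77732_c4_g1 ranked 42; the highest was DN68587_c1_g2 (r = 0.96), also outside the lists. The median r of the phenylpropanoid and flavonoid unigenes with PAL was 0.10 over 108 in LR, against 0.13 for all unigenes, and 0.71 over 112 in LB, against 0.16 for all. The study selected the phenylpropanoid list on these same libraries. In LB at S3 against S1, 73 of its unigenes, this PAL among them, were called lower and 24 higher. Over all unigenes 13834 were called lower and 5653 higher there. The LB median is therefore not independent of how the list was chosen. These ranks describe 15 libraries that share their stages.

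The Trinity component of this PAL held 3 further unigenes, none in the pathway lists. DN66948_c1_g2 was listed at 0 in 14 of 15 LR libraries and averaged 4.04 to 22.8 FPKM in LB, with its highest LB mean at S3, where PAL DN66948_c1_g4 was lowest. DN66948_c1_g3 averaged 42.1 to 109.6 FPKM in LR, against 262.1 to 1314 FPKM in LB, also highest in LB at S3. DN66948_c1_g1 did not reach 1 FPKM in any library. In the study's annotation DN66948_c1_g4 is a short fragment, and whether reads were split among unigenes of this component was not tested, so its level is uncertain.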

How the data were processed

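Fruit RNA was sequenced in 30 libraries; the study's text gives the reads as single-end in one place and as paired in another. The authors assembled the reads de novo with Trinity, clustered transcripts with Corset and deposited FPKM for 326276 unigenes in 30 columns; the labels name Bowtie2 with no version. No counts were used, so the counting error of a value is unknown, and no column was left unmapped (0). Groups followed the column codes.

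The deposited FPKM of 111217 unigenes with 1 FPKM or more in at least 3 libraries were taken as log2(FPKM + 0.5) and fitted with 1 mean per group over all 30 libraries (limma 3.58.1 in R 4.3.3, eBayes with trend and robust, 20 residual degrees of freedom), over 23 contrasts, two-sided. The procedure was tested on simulated data. Correlations used 100000 permutations, two-sided; where 1e-05 is the smallest p these can give, the adjusted values rest on it. Named unigenes were the PAL member, the other PAL unigenes, the C4H and 4CL unigenes, CHS, LDOX, the member's component and the 5 unigenes most like it in each species. Not all are printed. Members and lists were chosen with earlier results of these data known. Alternatives were offsets, filters, scalings, library weights, the replicate number as a block and leaving out libraries. The 3 libraries of a stage come from different trees; trees can recur across stages.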

Additional observations from a re-analysis of the deposited data

Results flagged for a closer look

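Among the PAL, C4H, CHS and LDOX unigenes, the late minus early change differed between LR and LB for 3, by a test of the difference itself. It was 7.10 log2 units more positive in LR for CHS DN73389_c1_g2, 7.605 for LDOX DN68066_c0_g2 and 2.58 for C4H DN77732_c4_g1 (limma adjusted p = 8.5e-09, 1.9e-10 and 0.00010). The 4 PAL unigenes were not called in that comparison. Of the 113 phenylpropanoid unigenes, which the study selected on these same libraries, 28 were called more positive in LR and 15 less positive. CHS and LDOX are not among these. Over all unigenes tested, 4203 were called more positive and 5221 less positive, 8.47% together.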

How the results depend on the processing

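The LR minus LB differences of PAL kept their direction under all alternatives run. Leaving out 1 library gave 1.65 to 1.97 at S1 (not called without LB1-3 or LR1-3), 2.40 to 2.87 at S2, 2.80 to 3.57 at S3, 3.499 to 4.16 at S4 and 3.52 to 4.42 at S5. It gave 1.75 to 2.64 for the LR minus LB difference of S5 against S1 (called without LR5-1), 1.32 to 1.63 for that of late against early fruits (called without LB3-2, LB4-1, LR3-1 or LR5-1), 1.65 to 2.60 for S5 against S3 in LR, -1.73 to -0.9997 for S3 against S1 in LR (called without LR3-3), -0.0336 to 0.72 for S4 against S3 in LB (reversed without LB4-1) and 4.54 to 9.20 for the LR stage F, which lost its call without LR1-1, LR2-2, LR3-1, LR3-2, LR5-2 or LR5-3. With CHS in LB, r was 0.43 to 0.57 and passed without LB4-1, and the LB late minus early ratios were 0.71 to 0.94 against DN100508_c2_g5 and 0.44 to 0.69 against DN65745_c2_g1, the last of which was 0.45 and not called with offset 1.

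With only the libraries compared, S3 between species (3.24), S5 against S3 in LR (2.15) and the LR stage F (5.73) lost their calls, in fits with fewer libraries. The LR stage F also lost its call with offset 0.1 (6.08), no filter (6.73) and median-of-ratios scaling (4.90); the cause was not tested. Median-of-ratios scaling and rescaling without the 28 abundant LR unigenes gave 1.60 and 1.74 for S5 against S3 in LR (not called), 1.71 and 1.85 for the species difference of late against early fruits (called) and an r with CHS in LR of 0.57 and 0.62 (past the threshold). The PAL sums then differed by 1.14 and 1.18 at S1 and by 3.67 and 3.96 at S3, and the rescaling turned S3 against S2 in LR to 0.13. Library quality weights made calls of S3 against S1 in LR (-1.51), S2 against S1 (-1.55), S3 against S2 (-1.41), S5 against S3 (1.59) and S5 against S1 (-1.37) in LB, and of the species differences of S5 against S1 (2.08) and late against early (1.36). For CHS, r in LB was 0.61 without the 2 libraries farthest from its median, and the split by stage, added after seeing the data, gave 0.95 in late LR fruits, -0.61 in early LR fruits and -0.0503 in early LB fruits. Phenylpropanoid unigenes called under median-of-ratios scaling were 4 for S5 against S4 in LR and 1 for S4 against S3 in LB, against 7 and 0.

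The replicate number as a block changed no call of PAL (4.02 at S5), and calls over all unigenes at S5 were 36853 with the block and 36825 without. This block fitted 1 effect per number to LR and LB together. It therefore could not fully take up a deviation found in LR alone, and it is no check on shared trees. Same-numbered LR and LB libraries did not deviate together (r -0.10 to 0.02 over 15 pairs). Within a species, r was over 0.1 in 10 of 30 pairs in LR, 9 of them of number 3, and in 2 of 30 in LB. As not every pair passed 0.1 and no label ties a number to a tree, the block was not made the main design. Counts of all unigenes called moved by over 1.5 times for S2 against S1 in LR (518, with 280 at offset 0.1 and 828 with no filter), S4 against S3 in LR (61, with 92 with no filter, 206 with median-of-ratios scaling and 216 with the rescaling), S5 against S4 in LR (2834, with 1225 and 1442 under these scalings), S5 against S4 in LB (1352, with 785 at offset 0.1) and S4 against S3 in LB (300, with 555 without LB4-3 and LB5-2). Without read counts the precision of single low values, such as those of LB at S3, is unknown.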
